A study of Mus musculus with 8 samples.

Results

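SOX10 bound 746 places in a mouse melanocyte line that lay in no reproducible region of either histone mark of the study and more than 50 kb from any reproducible H3K27ac region. They were 18.1% (95% Wilson interval 17.0 to 19.3%) of the 4114 SOX10 sites on chromosomes 1 to 19. The members were chosen by measured peak positions. A site was a region where SOX10 peaks of both replicates shared at least 1 bp, it overlapped no H3K27me3 region found in both replicates, and no H3K27ac region found in both lay within 50 kb of either edge. They are called far unmarked sites from here on. Unmarked sites with an H3K27ac region within 50 kb (1108, near unmarked sites) and sites overlapping an H3K27ac region but no H3K27me3 region (2205, sites at H3K27ac) served for comparison. The remaining 55 sites overlapped H3K27me3.

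The cells were melan-Ink4a-Arf-1 (melan-a), an immortalised melanocyte line from embryonic skin of Cdkn2a tm1RDp/tm1RDp mice, so every library shares that genotype and stands for 1 line. They grew with 200 nM of the phorbol ester TPA and 200 pM cholera toxin in all libraries. Chromatin immunoprecipitation sequencing (ChIP-seq) was done for SOX10, H3K27ac and H3K27me3 in 2 libraries each, from independent experiments per the labels' protocols, and peaks were called against input, chromatin sequenced without antibody. There was 1 input for both SOX10 libraries and 1 for all histone libraries. SOX10 libraries kept 6440395 and 8985699 tags after duplicate removal, with 55% and 38% of tags redundant, and each histone library kept between 44416913 and 71987481.

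SOX10 is a high mobility group transcription factor that binds the minor groove and bends DNA. In the neural crest it drives melanocyte and glial fate, and in melanocytes it acts with MITF at pigment genes, often through enhancers away from promoters. H3K27ac is laid down by CBP and p300 at active enhancers and promoters, and H3K27me3 by Polycomb repressive complex 2 at silent genes. Positions are in the mm9 build. No annotation or genome of that build was used, so genes, exons and sequence at the sites are not analysed here.

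No p-values are given for these sets. Sites are not replicates of a condition, each antibody had 2 libraries, and no test over libraries was made. Each SOX10 difference is therefore given in both SOX10 libraries separately, and intervals cover counting error only. Both libraries are compared at the same sites and against the same input. An SD over the 2 libraries therefore leaves out variation of the input and of the choice of sites.

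Outside H3K27ac regions, SOX10 sites were sparser in more distant sequence. Counted by summit, there were 26.2 SOX10 sites per Mb (exact 95% Poisson interval 24.3 to 28.3) inside the regions, fewer than the 40.3 (38.4 to 42.3) in sequence up to 1 kb outside one. Between 10000 and 50000 bp there were 1.19 (1.09 to 1.30). Beyond the limit the density was 0.857 per Mb (0.746 to 0.980) from 50 to 100 kb, 0.689 from 100 to 200 kb, 0.416 from 200 to 500 kb and 0.321 from 500 to 1000 kb. Sequence over 1000 kb away held 0.168 sites per Mb (0.129 to 0.215). All sequence over 50 kb away made up 71.9% of the surveyed 2404 Mb and held 0.452 sites per Mb (0.421 to 0.484), against 4.10 (3.95 to 4.26) in sequence outside the regions but within 50 kb. Of the summits 781 lay over 50 kb away, counting also sites at H3K27me3 and sites with an edge within the limit. The surveyed length runs from the first to the last peak of each chromosome and includes sequence to which tags cannot be placed, and how much of it lies at each distance was not tested.

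**Figure D1:**
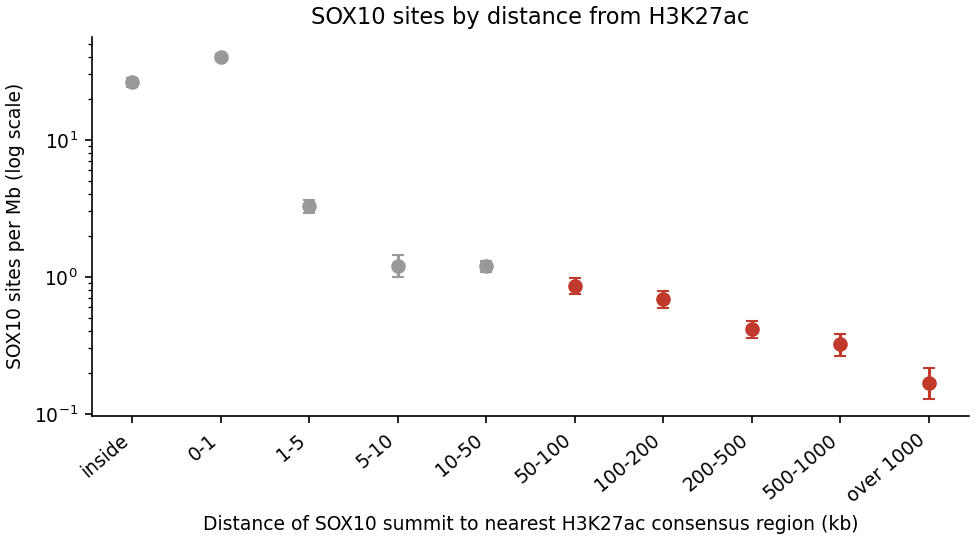
Density of SOX10 consensus sites (sites per Mb, log scale) against the distance of their summit from the nearest H3K27ac consensus region in kb, with exact 95% Poisson intervals as bars. Red points are the distances of the far unmarked sites, from 0.857 per Mb at 50 to 100 kb down to 0.168 over 1000 kb; grey points are the nearer distances.

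The members themselves lay a median of 189735 bp from the nearest H3K27ac region, with 25% nearer than 95492 bp and the farthest at 4596816 bp. By distance, 200 lay at 50 to 100 kb, 191 at 100 to 200 kb, 186 at 200 to 500 kb, 111 at 500 to 1000 kb and 58 beyond. Over these distances their median fold enrichment stayed between 11.86 and 11.89 in replicate 1 and between 11.40 and 13.45 in replicate 2. At the lowest input background 1 tag moves the fold by 1.32 in replicate 1, a coarser step than that range. Median tags at the summit, recovered as described below, ranged from 11 to 13 and from 15 to 17.4. The share at the lowest input background in both replicates was 24.5% at 50 to 100 kb, 44.1% at 500 to 1000 kb and 36.2% beyond. The threshold itself divides neighbours. The 3 members nearest the limit had H3K27ac at 50200, 50420 and 50634 bp, with folds of 14.50, 19.77 and 9.02 in replicate 1 and 14.04, 9.04 and 8.22 in replicate 2. The 3 sites just outside the set had it at 49888, 49874 and 49850 bp, with folds of 11.65, 11.75 and 18.35, then 11.57, 9.20 and 13.45.

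The label "unmarked" holds for reproducible regions but not for every list. Of the 746 sites, 133 (17.8%, 15.2 to 20.7%) overlapped an H3K27ac peak that the other H3K27ac replicate did not share. A peak of either replicate overlapped 43.2% of near unmarked sites and 68.7% of all SOX10 sites. Within 50 kb, 381 members (51.1%, 47.5 to 54.6%) had such a peak, against 90.6% of all SOX10 sites. The rule used H3K27ac, so these 2 contrasts with all sites are set by it. The remaining 365 sites (48.9%) had no H3K27ac peak of any list within 50 kb, and 128 (17.2%, 14.6 to 20%) had no peak of either mark in any list within that distance, against 3.11% of all SOX10 sites, a contrast that the rule also sets. With 1 H3K27ac library in place of the consensus, the set shrank to 446 sites without replicate 1 and 487 without replicate 2.

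These single-library H3K27ac peaks were gathered around the SOX10 summits. Sequence over 50 kb from reproducible acetylation held 3854 of them in 1729 Mb, 2.23 per Mb, and a window of 1010 bp, the members' median width, would meet one at 0.253% of positions there. At the members the share was 17.8%. Replicate 1 gave 55 such sites (7.37%) where a window would meet a peak at 0.108% of positions, and replicate 2 gave 89 (11.9%) where it would at 0.156%. Both lists overlapped the same member, with peaks that shared no base, at 11 sites. Sequence that takes no tags can hold neither kind of peak and lowers the window shares, by how much was not tested.

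By distance from the SOX10 summit, H3K27ac peak summits of replicate 1 stood at 67.0 per Mb (exact 95% Poisson interval 43.4 to 98.9) between 250 and 500 bp and 79.1 (60.2 to 102) between 500 and 1000 bp. Replicate 2 had 99.2 (69.8 to 137) and 91.2 (70.8 to 116). From 20000 to 50000 bp the densities were 2.75 (2.28 to 3.28) and 3.57 (3.04 to 4.17). The innermost 250 bp had fewer than the flanks in both lists, 18.8 (7.55 to 38.7) and 53.6 (32.8 to 82.8) per Mb. The interval of replicate 1 lies below those of its flanks, while that of replicate 2 overlaps them. The other sets, counted with all H3K27ac peaks, had the same gathering and inner dip. Near unmarked sites had 86.6 and 137 per Mb in the innermost 250 bp and 254.5 and 298 from 250 to 500 bp. From 20000 to 50000 bp they had 89.8 and 92.8. Sites at H3K27ac had 568 and 614 in the innermost 250 bp, then 1215 and 1231. Where a member did overlap a peak, the SOX10 summit was inside it at 3 of 55 sites in replicate 1 (5.45%, 1.87 to 14.9%) and at 10 of 89 in replicate 2 (11.2%, 6.22 to 19.5%). At sites with reproducible acetylation, where the cover was by merged regions of both libraries, it was 30.2% (28.4 to 32.2%). Peaks differed in width as well, with medians of 242 and 244 bp at members and 470 and 491 bp for peaks of shared regions at SOX10 sites, and the part of width in this was not tested. The H3K27ac lists were made with a tag distance of 50 and 51 bp, about the tag length, and its part in this was not tested.

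**Figure D2:**
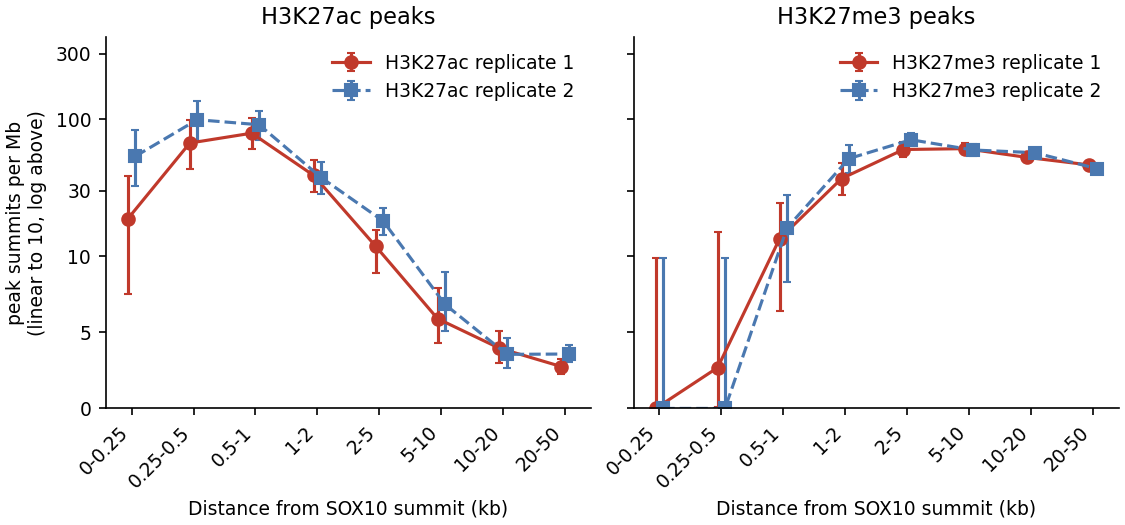
Peak summits per Mb around the summits of the 746 far unmarked SOX10 sites, by distance in kb, for each H3K27ac library (left) and H3K27me3 library (right), with exact 95% Poisson intervals; the vertical axis is linear to 10 and logarithmic above. H3K27ac peaks stand at 2.75 and 3.57 per Mb from 20000 to 50000 bp and at 67.0 to 99.2 between 250 and 1000 bp. H3K27me3 peaks stand at 46.4 and 43.6 per Mb from 20000 to 50000 bp and at 60.1 and 70.8 from 2000 to 5000 bp. Between 500 and 1000 bp they are sparser, at 13.4 and 16.1, and the rule allows no H3K27me3 consensus region at the site.

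In strength, the single-library peaks at members had folds near those of other unshared peaks and reached high scores at a somewhat larger share. Their median fold was 7.57 in replicate 1 (60 peaks) and 7.71 in replicate 2 (97 peaks), against 7.87 and 7.54 for all H3K27ac peaks outside consensus regions and 8.45 and 8.30 for those in them. A score, the authors' -log10(p) multiplied by 10, of at least 100 was reached by 23.3% and 23.7% of those at members, 13.8% and 16.0% of all outside consensus regions, and 56.6% and 59.2% of those in them.

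SOX10 signal itself differed among members by this acetylation. Members with a single-library H3K27ac peak at the site held a median of 23 and 34 SOX10 tags in replicates 1 and 2, those with one only within 50 kb 19 and 27, and those with none within 50 kb 16 and 25. Fold enrichment went the other way in replicate 2, at 10.85, 11.18 and 13.03, and in replicate 1 it was 11.10, 11.89 and 11.89. Input moved with these groups: the background under the site had medians of 1.50, 1.24 and 1.11 times the level over the whole genome for replicate 1 and 1.57, 1.23 and 1.11 in replicate 2. Its part in the differences was not tested.

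**Figure D3:**
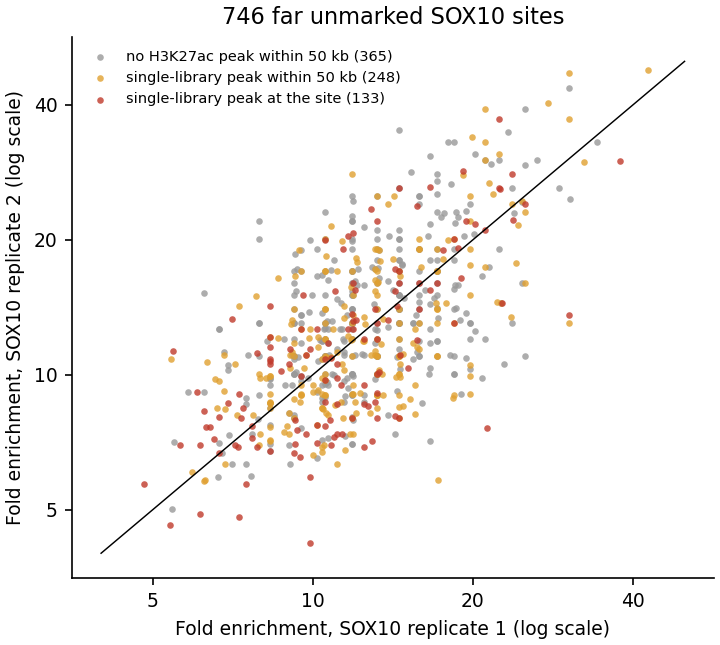
Fold enrichment of each of the 746 far unmarked SOX10 sites in replicate 1 (horizontal) and replicate 2 (vertical), both on log scales, coloured by the nearest H3K27ac peak of any list; the line marks equal folds. The 3 colours overlap over most of the range, and vertical columns of points arise because folds at the lowest input background step by whole tags.

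Over all members, fold enrichment, the authors' ratio of tags at the summit to background, ran from 4.82 through a median of 11.86 to 42.65 in SOX10 replicate 1 and from 4.22 through 12.03 to 47.93 in replicate 2. Both libraries gave folds within a factor of 2 of each other at 720 of the 746 sites (96.5%, 94.9 to 97.6%), much as at all SOX10 sites (96.1%), and across sites, which share libraries and input, the log2 folds correlated with r = 0.612. The correlation was 0.611 at near unmarked sites and 0.761 at H3K27ac. Summits of both replicates lay a median of 48 bp apart. Tags in the peak ran from 10 through 19 to 62 in replicate 1 and from 11 through 27 to 100 in replicate 2. The fold can be turned back into tags at the summit, the summit height, by multiplying it with the background recovered from the authors' p and tag count. This gave a whole number within 0.1 tags at 99.6% of the 284 members at the lowest background (within 5% of the genome-wide level) in replicate 1 and 100% of 281 in replicate 2. A median member rested on 12 tags at its summit in replicate 1 and 16 in replicate 2.

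Compared with near unmarked sites, far unmarked sites had nearly the same SOX10 signal. Mean log2 fold was 3.63 (SD 0.50 over sites) in replicate 1 and 3.66 (SD 0.59) in replicate 2. The difference from near unmarked sites was 0.03 ± 0.027 (SD over 2 libraries), about the size of its spread, with ratios of 1.01 and 1.04. Median heights were 12 and 16 tags against 12 and 17.0, and median tags 19 and 27 against 20 and 28.5.

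Compared with sites at H3K27ac, the direction depended on the measure. Fold was higher at far unmarked sites, with a difference in mean log2 fold of 0.23 ± 0.0014 (SD over 2 libraries), 1.17-fold in both replicates, and medians of 11.86 and 12.03 against 10.07 and 10.36. Height was lower, 0.756 times that at H3K27ac in replicate 1 and 0.745 times in replicate 2, with medians of 12 and 16 tags against 16 and 22.0. Tags in the peak were 0.631 and 0.592 times as many. Input background, from the 1 input that both replicates share, was lower too. Its medians were 1.14 and 1.17 times the genome-wide level against 1.91 and 1.98, and its part in the fold difference was not tested. The sign of the fold difference was reversed where input stood at its floor, within 5% of the genome-wide level, for both libraries. There the 245 far unmarked sites had 0.892 and 0.929 times the fold of the 110 sites at H3K27ac, with medians of 13.18 and 14.04 against 14.50 and 16.04. At the remaining sites, 501 far unmarked and 2095 at H3K27ac, the fold of far unmarked sites was 1.13 and 1.11 times as high.

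**Figure D4:**
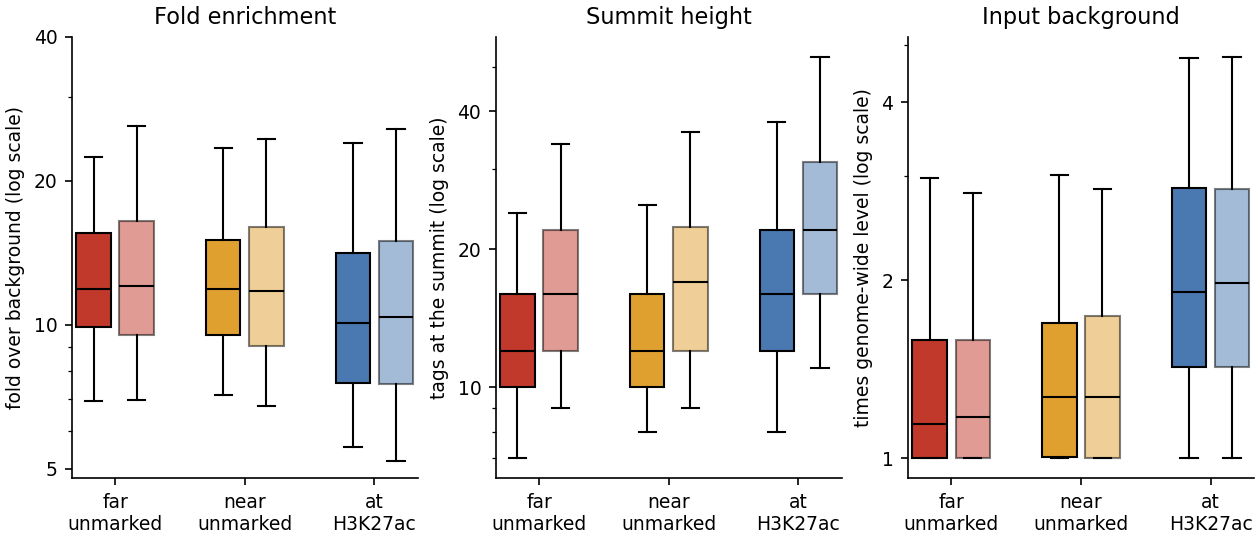
Fold enrichment, summit height in tags and input background relative to the genome-wide level (log scales) at far unmarked, near unmarked and H3K27ac sites; darker boxes are SOX10 replicate 1 and paler boxes replicate 2. Boxes span the quartiles with the median, whiskers the central 90% of sites. Far and near unmarked sites nearly coincide, and sites at H3K27ac have a lower fold over all sites (a higher one at the input floor) but greater height and background.

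The input floor was met often: 245 members (32.8%, 29.6 to 36.3%) stood at it in both replicates, against 15.2% of all SOX10 sites, 23.4% of near unmarked sites and 4.99% of those at H3K27ac. No member exceeded 10 times the genome-wide level, which 0.219% of all SOX10 sites did. The highest input was on chromosome 8 at 47636984 to 47637763, with 5.25 and 4.98 times that level and folds of 6.28 and 5.84.

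Rank shows the same dependence on the measure. Ordered by height, far unmarked sites made up 30.1% (25.9 to 34.7%) of the lowest decile of the 4114 SOX10 sites and 5.83% (3.95 to 8.52%) of the highest. They were 30 of the 100 lowest sites and 2 of the 100 highest. Ordered by fold, they were 4.61% (2.97 to 7.09%) of the lowest decile, 24.8% (20.8 to 29.1%) of decile 7 and 17.7% (14.3 to 21.7%) of the highest, with 15 of the 100 highest. A score of at least 100 in both replicates was reached by 184 members (24.7%, 21.7 to 27.9%), against 30.3% of all SOX10 sites, 25.2% of near unmarked sites and 34.9% of those at H3K27ac.

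**Figure D5:**
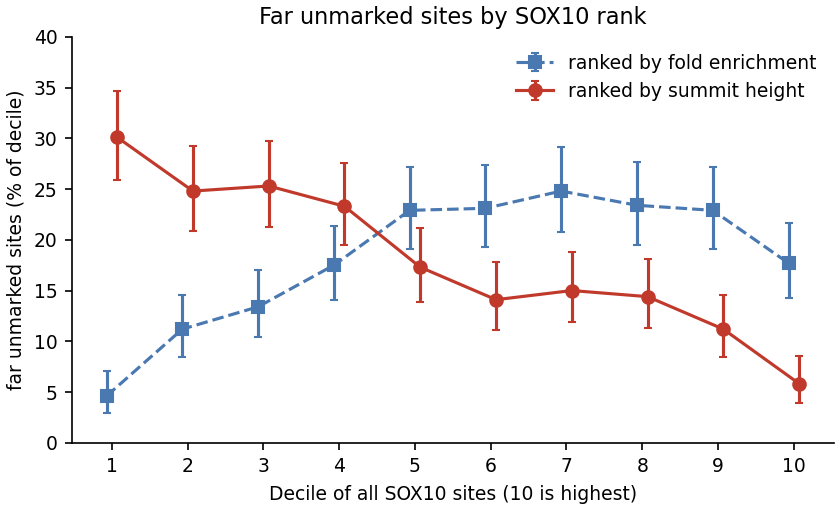
Far unmarked sites as a percentage of each decile of the 4114 SOX10 sites, ranked by summit height (red) or fold enrichment (blue), with 95% Wilson intervals. By height the share goes from 30.1% to 5.83%, and by fold from 4.61% through 24.8% in decile 7 to 17.7%.

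The overlap between libraries was counted for single peaks as well. Of the 1401 SOX10 peaks of replicate 1 that met the marks part of the rule on their own, 53.8% (51.2 to 56.4%) overlapped a replicate 2 peak, against 60.2% (58.0 to 62.3%) of near unmarked peaks and 75.8% (74.2 to 77.4%) at H3K27ac. Of the 1956 such peaks of replicate 2, 38.3% (36.2 to 40.5%) had a replicate 1 peak, against 38.2% and 50.8%. With a score of at least 100, the shares of far unmarked peaks were 90.2% (86.0 to 93.2%) and 70.7% (66.7 to 74.4%), those of near unmarked peaks 93.6% and 69.8%, and those at H3K27ac 95.6% and 77.4%. The authors' FDR was at most 1% in both libraries at 220 members (29.5%, 26.3 to 32.9%), against 33.6% of all SOX10 sites, 31.2% of near unmarked sites and 36.2% of those at H3K27ac. This FDR did not fall steadily with strength. The member of highest fold had FDRs of 5.26 and 10% at scores of 433 and 723. The rule thus rests on both libraries: all peaks of 1 library as sites would give 1956 members without replicate 1 and 1401 without replicate 2.

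Far unmarked sites were narrower than sites at H3K27ac. Their width ran from 545 to 2359 bp with a median of 1010 bp, against 1052 bp at near unmarked sites and 1303 bp at H3K27ac. Another SOX10 site lay within 50 kb of 131 members (17.6%, 15.0 to 20.5%), against 41.5% of all SOX10 sites. The rule bars a neighbour that lies at H3K27ac within that distance, so the share was also counted among unmarked neighbours alone. It was 17.2% (14.6 to 20%) for far and 21.0% (18.7 to 23.5%) for near unmarked sites, 15.7% (14.2 to 17.3%) for sites at H3K27ac and 17.4% for all SOX10 sites, so that by this count the far unmarked sites were like all sites. The 17.6% became 28.0% without SOX10 replicate 1 and 11.3% without H3K27ac replicate 2. Linked by gaps of at most 50 kb, 625 members stood alone, 106 formed 53 pairs and 15 formed 5 groups of 3.

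The tightest group of 3 spanned 18.8 kb on chromosome 18, from 47449683 to 47468459, with folds of 11.35, 13.18 and 14.50 in replicate 1 and 19.90, 9.13 and 8.02 in replicate 2. Its middle site overlapped a single-library H3K27ac peak, and H3K27ac peaks lay 856 and 347 bp from the others. A second, of 40.8 kb on chromosome 1 from 129315687 to 129356516, had folds of 11.89, 8.32 and 13.36, then 20.72, 7.12 and 17.98. Its first site, at 129315687 to 129317626, overlapped H3K27ac peaks of both replicates that shared no base. Another, of 56.4 kb on chromosome 1 from 51146602 to 51203004, had folds of 23.30, 8.32 and 17.13, then 34.82, 7.02 and 18.05. No H3K27ac peak of any list lay within 50 kb of it, the nearest being 116404 bp away. H3K27me3 regions lay 9.9 to 35.8 kb from its sites.

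Between neighbouring H3K27ac regions, or between one and a chromosome's end, 3319 stretches were long enough to hold a member, and 527 (15.9%) did. Of these, 388 held 1, 139 held 2 or more, and 6 held at least 5, with 35 members among them. Stretches with a member had a median length of 777 kb, and those without 209 kb. The most, 7 each, lay in 1687 kb on chromosome 13 (39052705 to 40740051) and in 2985 kb on chromosome 5 (39250573 to 42235580). For their length, 5 members in 926 kb on chromosome 7 (136736051 to 137662038) were denser, at 5.40 per Mb.

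H3K27me3 lay within 50 kb of a smaller share of far unmarked sites than of the other sets, and within 1 kb of a larger share than of sites at H3K27ac. Within 50 kb of 301 members (40.3%, 36.9 to 43.9%) lay an H3K27me3 region, against 52.7% of all SOX10 sites, 57.5% (54.6 to 60.4%) of near unmarked sites and 53.4% (51.3 to 55.5%) of those at H3K27ac. Within 1 kb it was 44 members (5.90%, 4.42 to 7.83%), 3.25% (2.36 to 4.47%) of near unmarked sites and 1.13% (0.769 to 1.67%) of those at H3K27ac, and the first 2 intervals overlap. Over all SOX10 sites it was 3.89%. Within 5 kb it was 16.2%, 15.3% and 7.03%, and 12.2% of all SOX10 sites. The share within 50 kb went from 56.5% of members at 50 to 100 kb from acetylation to 36.6% at 200 to 500 kb and 6.90% beyond 1000 kb. Of the 58 members beyond 1000 kb, 17.2% overlapped a single-library H3K27ac peak and 31.0% had one within 50 kb. Over the whole set, the share with H3K27me3 within 50 kb was 60.1% without H3K27me3 replicate 1 and 65.9% without replicate 2. All peaks of 1 library are more numerous than shared ones, and no such values are given for the other sets. With peaks of either or both libraries, H3K27me3 lay within 50 kb of 72.1% (68.8 to 75.2%) of members. It then lay there at 80.3% of near unmarked sites, 76.6% of those at H3K27ac and 77.1% of all SOX10 sites. An H3K27me3 peak of a single library overlapped 12 members (1.61%, 0.923 to 2.79%), against 1.44% of near unmarked sites, 0.363% of those at H3K27ac and, with peaks of either or both libraries, 2.21% of all SOX10 sites. The nearest H3K27me3 region lay 14 bp from a site on chromosome 19 at 24886458 to 24887894 (folds 9.08 and 11.08). It was 23 bp from one on chromosome 16 at 23523222 to 23524178 (7.65 and 5.96) and 48 bp from one on chromosome 11 at 44206691 to 44207655 (13.18 and 11.03).

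Every chromosome from 1 to 19 held members, between 13 on chromosome 17 and 62 on chromosome 2. As a share of a chromosome's SOX10 sites they ranged from 9.77% (5.80 to 16.0%) on chromosome 17 and 11.3% (7.97 to 15.7%) on chromosome 11 to 26.9% (21.4 to 33.1%) on chromosome 13. The share was lower where H3K27ac regions were denser (r = -0.639 and rho = -0.570 over 19 chromosomes, a description only, since the rule is built on that spacing). Chromosome 11 had 27.4 H3K27ac regions per Mb and chromosome 13 had 9.39.

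The strongest member, on chromosome 3 at 141172097 to 141173627, had folds of 42.65 and 47.93 and heights of 41.0 and 53.0 tags. Reproducible H3K27ac was 800.3 kb away, though replicate 2 alone had a peak at 1415 bp. Another SOX10 site lay 111 bp from it. The site on chromosome 1 at 43771430 to 43772522 had folds of 30.32 and 47.03. An H3K27ac peak of replicate 1 lay 73 bp from it and an H3K27me3 region 151 bp. That on chromosome 19 at 38581426 to 38582397 had 30.26 and 43.61, with the greatest replicate 2 height of any member, 62.0 tags, and no H3K27ac peak of any list within 139124 bp.

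Among the other sites of the 10 strongest, that on chromosome 15 at 63230916 to 63232772 had folds of 37.83 and 30.03 and overlapped an H3K27ac peak of replicate 2. That on chromosome 8 at 38049972 to 38051080 had 34.27 and 33.09, with summits 1 bp apart, input at the floor and the nearest H3K27ac peak of any list at 86785 bp. Sites followed on chromosome 13 at 40010050 to 40011343 (30.32 and 37.10) and on chromosome 6 at 125787514 to 125788930 (27.68 and 40.37), with single-library H3K27ac peaks 71 and 418 bp away. On chromosome 13 at 32412940 to 32413808 the folds were 25.04 and 39.10, with no H3K27ac peak nearer than 359276 bp. The last were on chromosome 14 at 68387781 to 68388751 (32.36 and 29.89) and on chromosome 2 at 153795593 to 153796615 (22.41 and 37.10). An H3K27ac peak of replicate 2 lay 82 bp from the site on chromosome 14, and one overlapped that on chromosome 2. Of the 10, 6 had an H3K27ac peak of any list within 1 kb or overlapping, 3 had none within 50 kb, and 6 had an H3K27me3 region within 50 kb. Over all members these shares were 27.7%, 48.9% and 40.3%. Of all SOX10 sites, 77.5% had an H3K27ac peak of any list within 1 kb and 52.7% an H3K27me3 region within 50 kb. The rule sets the H3K27ac contrast with all sites.

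The most remote member lay 4.60 Mb from reproducible acetylation, on chromosome 3 at 46358980 to 46359751, with folds of 16.64 and 18.05 from heights of 14.0 and 18.0 tags. Its nearest SOX10 neighbour was 4468.4 kb away. Next came chromosome 16 at 70313666 to 70315365 (4306.2 kb; folds 11.35 and 7.39), which nonetheless overlapped an H3K27ac peak of replicate 2, and chromosome 16 at 72896977 to 72898044 (3475.4 kb; 13.87 and 16.18). Chromosome 4 at 77493765 to 77494869 had 17.13 and 23.06 at 2937.1 kb, and chromosome 14 at 109259671 to 109260487 had 11.86 and 12.03 at 2807.9 kb. Folds at these 5 lay within the range of the other members.

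The widest member spanned 2359 bp on chromosome 6 at 6634219 to 6636577, with folds of 13.58 and 9.0, an H3K27me3 region 730 bp away and input at 3.01 times the genome-wide level in both replicates. The next, on chromosomes 16, 3, 1 and 10, measured between 1985 and 2275 bp, and 3 of those 4 overlapped a single-library H3K27ac peak. The greatest disagreement between replicates was on chromosome 1 at 136456308 to 136457197, with folds of 17.22 and 5.82, followed by chromosome 11 at 6673085 to 6674064 (21.27 and 7.6) and chromosome 8 at 9204258 to 9205033 (7.91 and 22.06). Those folds rested on 18.0 and 8.0, 23.0 and 12.0, and 6.0 and 22.0 tags at the summit.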

How the data were processed

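Peak lists of 6 libraries were read by column position, 1 column title in 1 SOX10 list being damaged. Per the file headers, the authors called peaks in each library with MACS 1.4.2 at a p cutoff of 1e-05, with 1 tag kept per position. Local input background came from 1000 and 10000 bp windows for SOX10 and H3K27ac and was off for H3K27me3. Submitters' processing notes give the build as mm9, with the aligner not given in the sources used here. The deposited tag counts are whole numbers. The deposited -log10 p is multiplied by 10. The fold is the authors' ratio of summit tags to background, and the FDR is deposited in percent.

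Consensus regions, gaps and sets were computed with Python 3.11.15, numpy 2.4.6, scipy 1.17.1 and pandas 2.3.3. Background was recovered as the Poisson mean whose upper tail beyond the tags is the deposited p, over the genome-wide level (smaller library over genome size), and called at the floor below 1.05 times it. Height is fold times background over the tag distance of 225 or 212 bp. Functions were tested on simulated data. No test was made across libraries. The members, lists and rules for named sites were chosen with earlier results of these data known: the 10 strongest, 5 widest, 5 most remote, 3 nearest H3K27me3, 3 on each side of the limit, 3 most discordant, 3 of highest input and the 3 largest groups (ties by shortest span). The motif and gene parts of that plan need an mm9 genome and were not used here.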

Additional observations from a re-analysis of the deposited data

How the results depend on the processing

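The set depends on what counts as acetylated and as reproducible. With a limit of 25 kb the far unmarked share was 23.6% and the mean log2 fold minus that at H3K27ac 0.217. An H3K27ac peak of either library then lay within 50 kb of 62.3%, which also counts shared regions between 25 and 50 kb away. Another SOX10 site lay within 50 kb of 21.7%. With 100 kb the far unmarked share was 13.3%, the fold difference 0.244 and the share with single-library H3K27ac within 50 kb 42.9%. H3K27me3 then lay within 50 kb of 34.4%. Counting H3K27ac peaks of either library left 365 sites (8.87%). Their log2 fold differences were 0.259 from sites at H3K27ac and 0.080 from near unmarked sites, and 32.9% had H3K27me3 and 8.49% another SOX10 site within 50 kb, with 42.2% at the input floor. With H3K27me3 peaks of either library in the rule, such peaks lay within 50 kb of 71.7% of the 734 sites left, against 77.1% of all SOX10 sites. A SOX10 score of at least 100 left 184 sites (14.8%), 0.146 on the log2 scale against sites at H3K27ac and a median width of 1108 bp. Of these, 57.1% had single-library H3K27ac, 46.7% H3K27me3 and 5.43% another SOX10 site within 50 kb. An H3K27ac score of at least 100 gave 1201 sites (29.2%) and 0.058 against near unmarked sites, with 45.2% near H3K27me3 and 28.7% at the floor. Of the 1201, 62.1% were in the main set, and the others had a shared H3K27ac region within 50 kb under the main rule. Within 50 kb, 38.1% had an H3K27ac peak of that score, not shared at that score. Weaker H3K27ac peaks were left out of that count, so it cannot be set beside the 51.1% of the main set. Requiring 50% of the shorter peak to be shared gave 19.5%, 0.239 against sites at H3K27ac and 0.060 against near unmarked sites. Requiring H3K27me3 over 50% of a site gave 0.230 against sites at H3K27ac, and leaving out chromosome 6 gave 0.222. An FDR of at most 1% left 220 sites (15.9%), 0.317 against sites at H3K27ac, a width of 1096 bp and 8.64% with another SOX10 site. The FDR limit, unlike the score limit, left out the member of highest fold. The cause of these shifts was not tested.

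Leaving out each library in turn, with all peaks of the other as regions, gave 446 to 1956 sites, 10.8 to 22.1% of SOX10 sites. The log2 fold difference was 0.208 to 0.249 from sites at H3K27ac and 0.029 to 0.077 from near unmarked sites, and the median width 729 to 1010 bp. Shares ran from 44.5 to 51.3% for single-library H3K27ac, 35.3 to 65.9% for H3K27me3, 11.3 to 28.0% for another SOX10 site and 32.8 to 45.1% for the floor. Of 150 values under 17 alternatives, 80 stayed within the spread allowed, which differs by result. At limits of 25 and 100 kb, 969 and 546 sites stayed within it, while their shares of 23.6% and 13.3% did not. The count of 80 is therefore no measure of stability. Both fold differences, the results that can change sign, kept it under these alternatives. At the input floor, however, that from sites at H3K27ac was reversed. That from near unmarked sites had opposite signs there, -0.0592 in replicate 1 and 0.0684 in replicate 2. No paired analysis was possible because no result comes from a test; the fold differences are taken within each SOX10 library. The share with single-library H3K27ac has no value where H3K27ac peaks of either or 1 library replace shared ones. The planned motif counts, which need an mm9 genome, were not run. A median member rests on 12 and 16 summit tags, and at the input floor 1 tag moves the fold by 1.32 and 1.00.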
